A study of Mus musculus with 103 samples.

Results

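The comparison described here set liver cells sorted from mice given DDC against liver cells sorted in the same way from mice without it. Its members are 14 samples of the 103 in the series. The 9 DDC samples were chosen because their description calls them primary cells treated with DDC, and the 5 untreated samples because their source is liver and no DDC is named. Both groups belong to a set of 40 sorted samples, from 8 mouse organs, that were hybridised to 1-colour Affymetrix arrays in a study of how cancer risk differs between organs. Cells that carry Prominin-1 (Prom1) at their surface were enriched with antibody-coated magnetic beads after the organ had been dissociated, red cells lysed and dead cells removed. A further 3 sorted samples, from neonatal liver without DDC, served as a reference for a growing liver. The labels give no strain, genotype, age, sex, DDC dose or duration for these groups, nor how many mice stand behind a group. The spread between samples may therefore be technical. The p-values below rest on that spread pooled over all 40 sorted samples, other organs included, and not on the 14 compared samples alone. The values are log2 levels, so a difference of 1 is a doubling. They are relative levels on an array, and the number of arrays limits their precision.

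DDC is the usual abbreviation, in mouse liver research, of diethoxycarbonyl-dihydrocollidine, a compound mixed into the diet that damages haem inside hepatocytes. The protoporphyrin that then builds up precipitates in bile and plugs the small bile ducts, which injures cholangiocytes and hepatocytes and is followed by a ductular reaction, in which duct-like cells expand around the portal tracts. Prominin-1 is a membrane glycoprotein of cell protrusions, found in liver mainly on duct and progenitor cells, and is often used to isolate them.

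The sorted samples were first set against the markers of liver cell types. Prom1 itself lay at 3.97, 2.94, 2.64, 3.46 and 4.24 in untreated samples 1 to 5, and at 10.27, 10.38 and 10.23 in the neonatal samples. The 9 DDC samples read 3.92, 3.31, 9.27, 8.28, 6.75, 9.24, 9.31, 7.21 and 6.1. DDC samples 1 and 2 thus lay inside the untreated range, and the other 7 lay above it, with a group difference of 3.59 ± 0.67 (SE, n = 9 and 5, limma adjusted p = 7.7e-05). Prom1 transcript was thus near the bottom of the array's range in all 5 untreated samples, despite the sort. Hepatocyte genes were high in every sample: the mean of the 17 hepatocyte markers measured was 10.99 to 12.41 in untreated samples and 9.86 to 12.31 in DDC samples. Alb, which encodes albumin, read 13.48 to 13.8 in untreated and 13.5 to 14.1 in DDC samples. The duct markers Krt19 (2.93 to 5.48) and Epcam (3.26 to 4.75) were low in all 5 untreated samples. With hepatocyte genes high and duct markers low in the untreated samples, both groups are called sorted liver cells here.

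**Figure D1:**
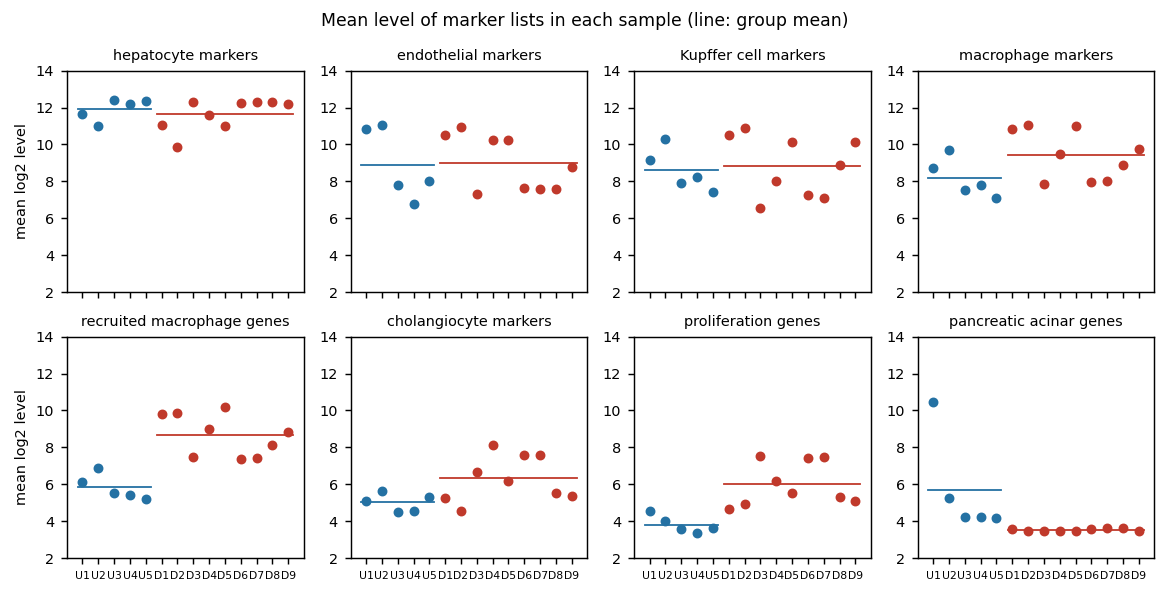
Mean log2 level of 8 marker lists in each of the 5 untreated (U) and 9 DDC (D) samples, with a line at each group's mean. Endothelial markers are high in U1, U2, D1, D2, D4 and D5 and lowest in U4, and Kupffer cell markers are high in U2, D1, D2, D5 and D9. Both lists are low in D3, D6 and D7, whereas cholangiocyte and proliferation genes are highest in D3, D4, D6 and D7.

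The makeup of the samples varied within both groups. The 18 endothelial and sinusoid markers averaged 10.82 and 11.03 in untreated samples 1 and 2 but 6.78 to 8.02 in the other 3, and 10.24 to 10.93 in DDC samples 1, 2, 4 and 5 against 7.33 to 8.77 in the other 5. Macrophage markers ran from 7.88 to 11.05 over the DDC samples and from 7.09 to 9.71 over the untreated ones. In these bulk samples, fewer cells of a type and less RNA of that type per cell cannot be told apart. DDC sample 5 had Xist at 11.27 and the Y-linked Eif2s3y at 2.88, Kdm5d at 2.9 and Uty at 2.72, while in the other 13 samples Xist stayed at or below 5.38 and Eif2s3y at or above 7.08. The 3 neonatal samples had both Xist (9.34 to 10.39) and Eif2s3y (8.02 to 8.93). DDC samples 6 and 7 were the most alike pair (r = 0.992 over all probe sets), with differences of up to 1.66 for single probe sets, and were kept as separate samples.

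The groups also differed in the numbers in their sample titles, which the labels do not explain, and in RNA quality. All 5 untreated samples carry low numbers and all 9 DDC samples high ones, so what these numbers stand for and DDC cannot be told apart. Gt(ROSA)26Sor, the transcript of the Rosa26 locus, lay at 2.53 to 5.74 in all 15 sorted samples with low numbers, whatever the organ, and at 6.0 to 10.09 in all 25 with high numbers. It was one of the largest differences here, 5.46 ± 0.48, and is described no further as a response to DDC. Among genes tested, 6 were higher and 1 lower in every one of the 16 other sorted samples with high numbers than in the 10 other samples with low numbers; 3 of these 7 were called between the liver groups, Gt(ROSA)26Sor, Uxs1 (1.42) and, in the opposite direction, Tspan33 (-1.56; -1.17 and not called without untreated sample 3), both named after their values were seen. The log2 excess of the 3' over the 5' control probe set of Gapdh was 0.42 ± 0.09 (SD, n = 9) after DDC and 1.1 ± 0.12 (n = 5) in untreated samples (exact two-sided permutation p = 0.0005, the smallest that 2002 splits allow), and these ranges did not overlap. The part of title number and RNA quality in the results below was not tested beyond the alternatives named. The same excess for actin, used as a covariate below, was 0.541, 0.54 and 0.71 in DDC samples 1, 2 and 5. In DDC samples 3, 6 and 7 it was 1.285, 1.392 and 1.375. The first 3 had the highest macrophage marker means of the group (10.84 to 11.05) and the last 3 the lowest (7.88 to 8.0). That covariate thus cannot separate RNA quality from the mix of cells. The Gapdh excess was not used as a covariate.

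**Figure D2:**
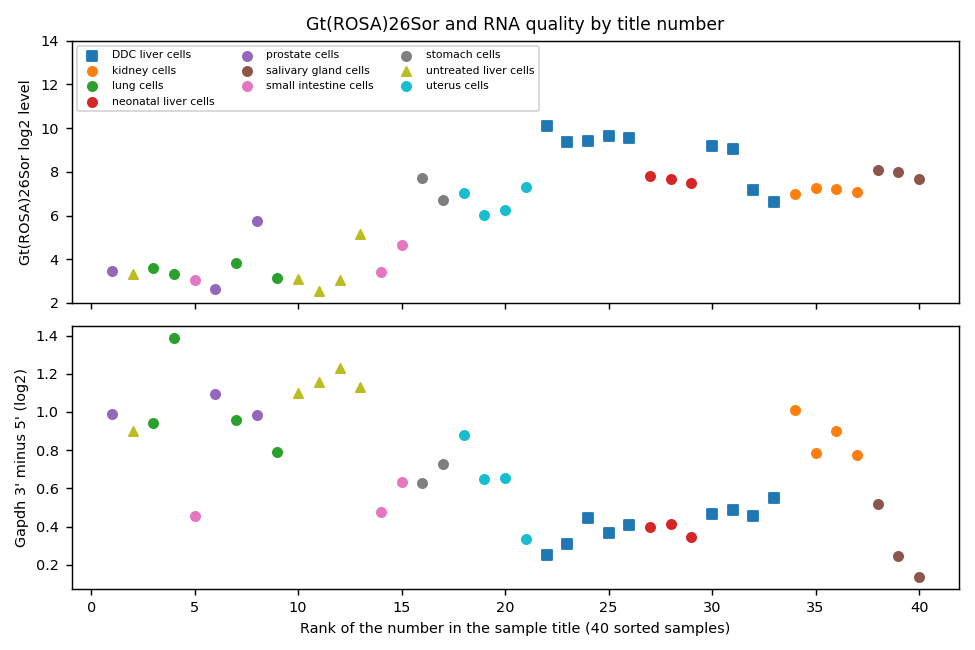
Log2 level of Gt(ROSA)26Sor (top) and the log2 excess of the 3' over the 5' Gapdh control probe set (bottom) in the 40 sorted samples, ordered by the rank of the number in the sample title and coloured by group. Gt(ROSA)26Sor stays at or below 5.74 in the 15 samples with low numbers, which hold all untreated liver samples. It stays at or above 6.0 in the 25 others, which hold all DDC samples. The cut between low and high numbers lies between the small intestine and stomach samples, where this gene splits.

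Of 10927 genes tested, 2347 (21.5%) were called, meaning a limma adjusted p under 0.05 and a log2 difference of at least 1. Of these, 1744 (16.0% of genes tested) were higher and 603 (5.52%) lower after DDC, and the median difference over all genes tested was 0.24. The excess of increases depended on the scaling. Quantile normalization gave 1158 higher and 1005 lower calls with a median of 0.00, and median centring gave 1311 and 880 with a median of 0.07, so that 74.3%, 53.5% and 59.8% of calls were increases under the 3 scalings. The median of a list is therefore read against 0.24, and its counts against the shares of 16.0% higher and 5.52% lower. Leaving out each sample in turn, 1453 of the 2347 calls (61.9%) stayed called every time. A fit of the 14 compared samples alone called 1921 genes and kept 1912 of the 2347 calls. In 609 genes called higher (5.57% of genes tested) and 196 called lower (1.79%), the 9 DDC samples did not overlap the 5 untreated ones.

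After Gt(ROSA)26Sor was set aside, the largest increases without overlap were in Lcn2, Sprr1a, Ubd, Cpe, Mmp12 and Cxcl14. Lcn2, which encodes the iron-siderophore binding protein lipocalin-2, lay at 3.15, 5.3, 7.19, 3.78 and 4.28 in untreated samples 1 to 5, and after DDC its lowest, median and highest values were 9.76, 12.02 and 12.47. Every DDC sample was above every untreated one, with a difference of 7.09 ± 0.48 (adjusted p = 3.1e-13). Sprr1a, a cornified envelope protein that injured epithelia also make, read 3.34, 4.66, 3.35, 5.18 and 4.07 without DDC and 5.57, 10.45 and 11.12 after it (5.43 ± 0.56, adjusted p = 5.7e-09). Its lowest DDC value belonged to sample 2 and stood only just above the highest untreated one.

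Ubd, which encodes the ubiquitin-like modifier FAT10 found in Mallory bodies, rose by 5.25 ± 0.46 from 3.06, 3.74, 2.62, 3.54 and 3.95 to between 5.33 and 9.76 (median 9.41, adjusted p = 2e-10). Cpe, carboxypeptidase E, rose by 5.2 ± 0.43 from 2.54 to 4.18 in untreated samples to 5.76 to 9.54. Cxcl14, a chemokine of epithelia, was at 3.24, 3.49, 2.99, 3.23 and 3.54 without DDC and at 7.43, 8.51 and 9.1 with it (5.13 ± 0.39, adjusted p = 7.8e-12). The SD of Cxcl14 over the 9 DDC samples was 0.58, against 1.73 for Sprr1a and 1.47 for Ubd. Atp6v0d2 (4.11 ± 0.45), a proton pump subunit of macrophages, Ear3 (4.85 ± 0.65), a ribonuclease with close copies in the genome, Steap2 (4.42 ± 0.31), a metalloreductase, and Defb1 (4.38 ± 0.5), an antimicrobial peptide of epithelia, were also among the 15 largest increases without overlap, as were Armcx4 (4.08 ± 0.62) and D17H6S56E-5 (4.87 ± 0.45), whose roles are not described here. The 3 neonatal samples also had D17H6S56E-5 (9.25 to 9.46) and Defb1 (9.3 to 9.44) at DDC-like levels, but not Cxcl14 (2.85 to 2.97) or Sprr1a (3.48 to 4.12).

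**Figure D3:**
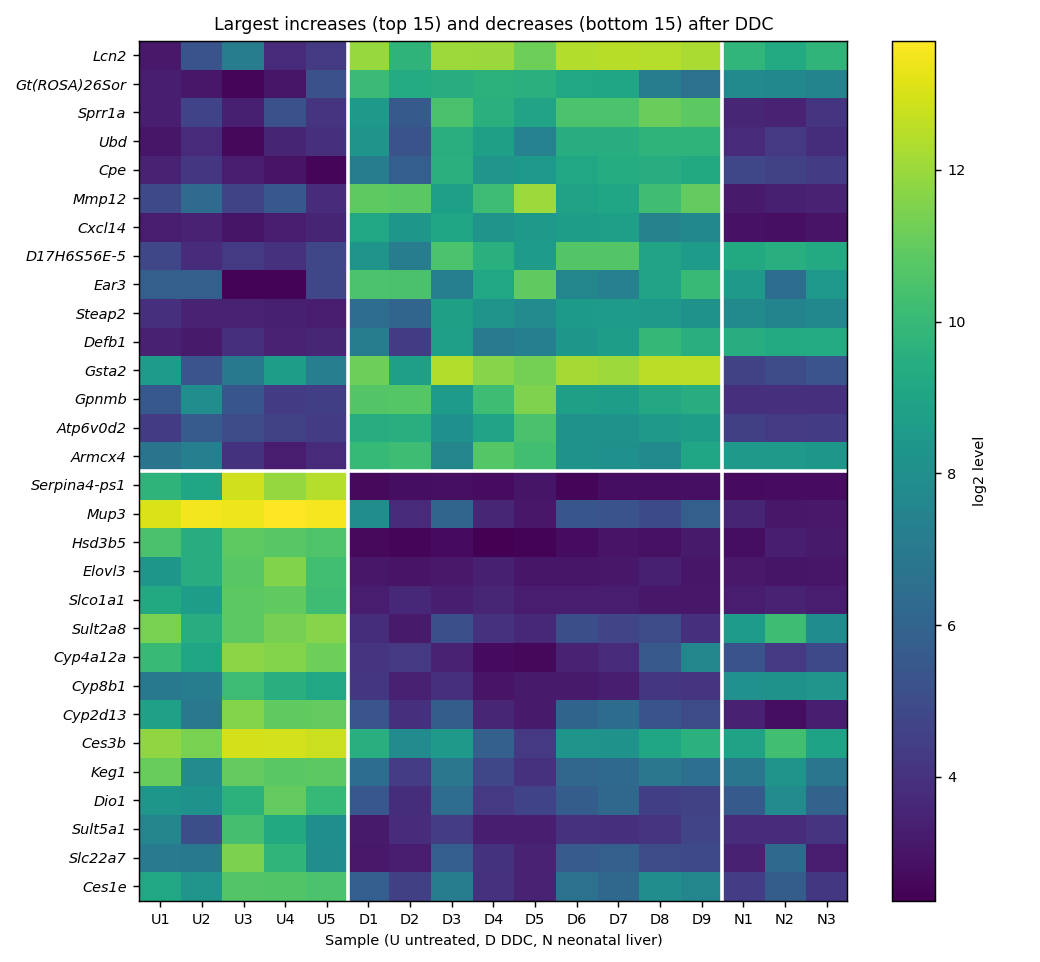
Log2 levels, as colour, of the 15 largest increases and the 15 largest decreases among called genes whose DDC (D) and untreated (U) samples do not overlap, with the 3 neonatal liver samples (N) beside them. The decreases of Serpina4-ps1, Hsd3b5, Elovl3 and Slco1a1 are near the bottom of the scale in all 9 DDC samples, whereas the increases vary more, with D2 lowest for Lcn2, Sprr1a, Ubd, Cpe and Defb1.

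Genes that male mouse livers express far above female ones, under the pulsed growth hormone secretion of males, were among the largest decreases, with 5 of the 15 largest without overlap. Of 13 male-biased liver genes tested, 10 fell and 0 rose (9 to 11 lower when single samples were left out), with a median difference of -2.85. Hsd3b5, a steroid reductase, lay at 10.45, 9.44, 10.91, 10.77 and 10.58 in untreated samples and at 2.37, 2.7 and 3.17 (lowest, median, highest) after DDC, a fall of 7.71 ± 0.18 on the log2 scale (adjusted p = 2.5e-27). The groups were far apart, and Hsd3b5 was near the bottom of the array's range in every DDC sample. Serpina4-ps1, a serpin pseudogene outside the list, fell most of all genes in this set, by 8.43 on the log2 scale (SE 0.35), from 9.06 to 12.86 to between 2.51 and 3.0.

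Mup3, a major urinary protein, read 13.05, 13.49, 13.43, 13.7 and 13.56 without DDC and 3.1, 5.26 and 7.98 with it (-8.35 ± 0.49, adjusted p = 5.1e-15), although its probes may also bind other members of the Mup family. Elovl3, which elongates fatty acids, fell from between 8.36 and 11.56 to between 2.95 and 3.38 (-6.95 ± 0.27, adjusted p = 3.9e-20). The organic anion importer Slco1a1 (-6.67 ± 0.23), the arachidonic acid hydroxylase Cyp4a12a (-6.56 ± 0.51) and the oxysterol hydroxylase Cyp7b1 (-3.22 ± 0.33) fell too. DDC samples 8 and 9 kept more Cyp4a12a (5.54 and 7.56) than the other 7 (2.61 to 4.24).

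Transcripts of the Y chromosome were not lost with them in 8 of the 9 DDC samples. Of the 3 Y-linked genes tested none was called, although Uty was called higher without DDC sample 5 (1.47), and 8 of the 9 DDC samples had Eif2s3y at 9.0 to 9.56 against 7.08 to 9.16 in untreated samples. Without DDC sample 5, the one with Xist, the fall of Hsd3b5 and of Mup3 remained called. The growth hormone receptor Ghr itself fell, from 11.05, 9.7, 11.7, 12.06 and 11.58 to 8.38, 10.2 and 10.53 (-1.57 ± 0.43, adjusted p = 0.0036), the only called gene of 12 in the growth hormone axis (4 were lower without untreated sample 2), and was not called with the actin 3' excess as a covariate (-0.69, adjusted p = 0.2). The groups overlapped for Ghr, since untreated sample 2 lay below 5 of the 9 DDC samples. Igf1 (10.57 to 11.66 after DDC, 9.49 to 11.94 without) and Socs2 (7.9 to 9.32 and 7.23 to 9.04), both induced by growth hormone, were not called.

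Of 7 female-biased liver genes tested, of 12 measured, 4 were called higher and 0 lower (median 1.3). Among the 4 were Prom1 itself, the neurotrophin receptor Ntrk2 (1.59 ± 0.4, adjusted p = 0.0021) and the steroid hydroxylase Cyp17a1 (1.25 ± 0.37, adjusted p = 0.007). In a fit of the 14 samples with the mean level of the Y-linked genes as a covariate, 1 of these 4 calls was left. Cyp17a1 was clearly above the untreated range (2.83 to 3.88) in DDC samples 3, 6 and 7 (6.05, 5.94 and 5.97), and at the untreated level in samples 1, 2 and 9 (2.82, 2.92 and 3.86). The other large decreases included the deiodinase Dio1 (-4.34 ± 0.43), the sulfotransferases Sult2a8 (-6.65 ± 0.33) and Sult5a1 (-4.19 ± 0.47), the carboxylesterases Ces3b (-4.51 ± 0.54) and Ces1e (-3.93 ± 0.53), Cyp2d13 (-4.92 ± 0.51) and the acyltransferase Keg1 (-4.5 ± 0.43). Sult2a8 was at 3.19 to 5.14 in all DDC samples against 9.43 to 11.65 in untreated ones.

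Bile acid synthesis genes were called in both directions. Of 13, 2 rose and 3 fell (median -0.74), against 16.0% and 5.52% of all genes tested. The number lower was 6 without untreated sample 2 and 5 without DDC sample 8. Cyp8b1, the sterol 12-hydroxylase that sets the share of cholic acid, fell from 6.94, 7.17, 10.13, 9.48 and 9.16 to 2.96, 3.41 and 4.17 (-4.98 ± 0.33, adjusted p = 1.7e-13), with no overlap. Cyp7a1, the rate-limiting enzyme of the classic pathway, went the other way, from 6.93, 5.88, 5.54, 8.8 and 6.07 to 6.71, 9.28 and 9.71 (2.08 ± 0.45, adjusted p = 0.00038).

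The 2 groups overlapped for Cyp7a1, because untreated sample 4 lay above DDC samples 2, 4 and 5. Cyp7b1, of the alternative pathway, fell with no overlap (9.58 to 12.49 without DDC, 6.83 to 8.43 with it). The receptor Nr0b2 (SHP), which represses both Cyp7a1 and Cyp8b1, lay at 4.52 to 8.75 after DDC and at 7.56 to 9.14 without it and was not called (-1.12 ± 0.51, adjusted p = 0.072), although it was called lower without DDC sample 3, 6, 7 or 8 (-1.33 to -1.25), under quantile normalization (-1.37) and under median centring (-1.28).

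Transporter genes were called in both directions. Of 19 bile acid and organic anion transporters tested, 4 rose and 4 fell (median 0.33), against 16.0% and 5.52% of all genes tested. The number lower was 2 without untreated sample 4 or sample 5. Abcc4, an exporter of conjugated bile acids, was at 8.33, 8.38, 4.36, 4.34 and 4.94 in untreated samples and at 8.53, 9.01 and 9.08 after DDC (2.84 ± 0.47, adjusted p = 1.4e-05). The untreated samples formed a high pair, samples 1 and 2, which were also those with high endothelial markers, and a low group of 3; even the pair stayed below every DDC sample.

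Abcb1a, a drug efflux pump, rose from 3.41 to 4.4 to between 4.58 and 8.23 (2.95 ± 0.47, adjusted p = 9.7e-06), without overlap. Slc51b, a subunit of the basolateral bile acid exporter, rose by 1.68 ± 0.35, from 3.93 to 4.93 to between 3.93 and 7.47. Of the importers, Slco1a1 fell as given above, and Slc22a7, an organic anion carrier, fell from 7.05, 6.95, 11.48, 9.79 and 7.96 to 3.16, 4.89 and 5.78 (-4.11 ± 0.54, adjusted p = 4.9e-07).

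Slc10a1 (NTCP), the main bile acid importer of hepatocytes, was called lower over all samples (-1.72 ± 0.6, adjusted p = 0.021) but not when untreated sample 3, 4 or 5 was left out (-1.52, -1.58 and -1.5; adjusted p = 0.069, 0.056 and 0.068), and its difference was 0.39 with the actin 3' excess as a covariate. The canalicular pumps Abcb11 (6.45 to 10.63 after DDC, 8.18 to 11.37 without) and Abcc2 (7.24 to 10.88 and 5.52 to 9.98) were not called over all samples. Abcc2 was called higher with the actin 3' excess (2.59) or the macrophage mean (2.37) as a covariate, without DDC samples 1 and 2 (1.48), and with only the DDC samples of higher title numbers kept (2.08). Abcb11 was called lower without untreated samples 1 and 2 (-1.93) and with only the DDC samples of lower title numbers kept (-1.66).

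**Figure D4:**
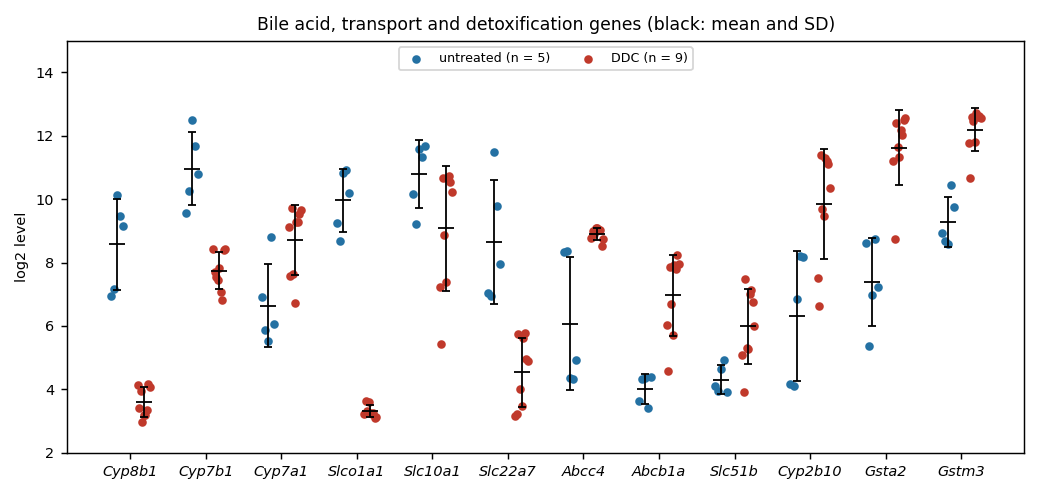
Log2 level of 12 bile acid, transport and detoxification genes in the 5 untreated (blue) and 9 DDC (red) samples, with the mean and SD of each group in black. Cyp8b1, Cyp7b1, Slco1a1 and Slc22a7 are lower in all DDC samples, Abcc4, Abcb1a, Gsta2 and Gstm3 higher in all of them, and Slc10a1 and Cyp7a1 overlap between the groups.

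Enzymes of haem synthesis were not called, although the compound is used for its effect on haem. Of 7 haem synthesis genes 0 passed the test (median -0.76), whereas quantile normalization called 3 of them lower. Alas1, the rate-limiting enzyme, lay at 8.13 to 11.12 after DDC and 8.07 to 11.38 without it (0.06 ± 0.42, adjusted p = 0.92), and was called higher only with the macrophage mean as a covariate (1.11). Fech, the ferrochelatase that DDC derivatives are known to block, lay at 8.34 to 9.65 and 8.68 to 9.7 (-0.24 ± 0.22, adjusted p = 0.38). The direction of Fech depended on the probe set, since a second one, taken when probe sets named for cross-hybridisation were left out, was called higher (1.11, adjusted p = 0.028).

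Of 16 genes of haem degradation and of iron and porphyrin transport, 4 rose and 1 fell (median 0.4). Over all genes tested the shares were 16.0% and 5.52%. The number higher was 2 when untreated sample 3 was left out. The haem transporter Slc48a1 rose from 7.7, 8.59, 6.34, 7.17 and 6.79 to 8.89, 9.36 and 9.49 (1.91 ± 0.23, adjusted p = 1.1e-07), and the haem exporter Flvcr1 from 4.42 to 6.71 to between 6.87 and 8.93 (2.03 ± 0.42, adjusted p = 0.00026). All DDC samples were above all untreated ones for both. Hmox1, haem oxygenase 1, was called (1.93 ± 0.68, adjusted p = 0.022), but not without untreated sample 3 (1.83, adjusted p = 0.056), 4 (1.78, 0.06) or 5 (1.26, 0.15), nor under quantile normalization (1.66, 0.052). Its level followed the macrophage markers, with 10.74, 10.8 and 10.8 in DDC samples 1, 2 and 5 and 7.53 to 7.89 in samples 3, 6 and 7. With the macrophage mean as a covariate the difference of Hmox1 was 0.43 (adjusted p = 0.32), and with the actin 3' excess 0.25 (adjusted p = 0.8).

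Mallory bodies are keratin aggregates that DDC feeding produces in hepatocytes. Of 11 Mallory body and keratin stress genes, 3 rose and 1 fell (median 0.55), the 3 being Ubd and both partners of the hepatocyte keratin pair. Krt8 rose from 9.43, 8.64, 9.79, 10.22 and 10.08 to between 10.19 and 13.26 (2.94 ± 0.32, adjusted p = 1.5e-08), with only DDC sample 2 at the untreated level. Krt18 rose by 1.91 ± 0.45, from 8.51 to 11.32 to between 9.6 and 12.9. The small heat shock protein Hspb1, a chaperone found in keratin aggregates, fell from 8.72, 10.03, 10.01, 11.88 and 9.32 to 5.02, 6.54 and 7.52 (-3.44 ± 0.4, adjusted p = 6.8e-08), again without overlap.

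Detoxification genes that the factor Nrf2 controls were called in part. Of 20 Nrf2 and glutathione genes, 10 rose and 1 fell (median 0.97), with 8 to 12 higher when single samples were left out, 6 under quantile normalization and 7 under median centring. Gsta2, a glutathione transferase, lay at 8.62, 5.37, 6.97, 8.73 and 7.23 in untreated samples and at 8.75, 12.02 and 12.57 after DDC (4.24 ± 0.45, adjusted p = 1.2e-08). Gstm3, of the same enzyme class, rose by 2.91 ± 0.3, and Cbr3, a carbonyl reductase, by 3.16 ± 0.3, from 4.02 to 6.6 to between 7.65 and 8.79. None of these 3 genes overlapped between the groups.

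The quinone reductase Nqo1 rose by 1.92 ± 0.37 (adjusted p = 0.00011) and Srxn1, sulfiredoxin, by 1.87 ± 0.34 (adjusted p = 5.7e-05). In contrast, Osgin1, an oxidative stress response gene, fell from 9.29, 9.13, 10.88, 11.27 and 11.48 to 6.46, 8.82 and 9.2 (-2.18 ± 0.4, adjusted p = 6.7e-05), but was not called with the actin 3' excess as a covariate (-0.88, adjusted p = 0.08). Gclc, a subunit of the enzyme that makes glutathione, lay at 9.74 to 11.84 after DDC and 9.84 to 11.74 without it and was not called. The drug-inducible cytochrome Cyp2b10 rose by 3.55 ± 0.69 (adjusted p = 0.00012), from 4.16, 4.11, 6.85, 8.2 and 8.19 to 6.62, 10.34 and 11.38, while Nr1i3 (CAR), the receptor through which it is induced, fell by 1.82 on the log2 scale (SE 0.47, adjusted p = 0.0024; 0.053 in a fit of the 14 samples alone, and -0.51 with adjusted p = 0.54 with the actin 3' excess as a covariate).

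Secreted plasma proteins were called in both directions. Of 18 acute phase genes, 3 rose and 2 fell (median 0.58), against 16.0% and 5.52% of all genes tested. The number higher was 6 without untreated sample 3 or DDC sample 2 and 8 with the actin 3' excess as a covariate. Orm2, alpha-1-acid glycoprotein 2, lay at 3.96, 3.98, 7.63, 7.02 and 3.7 in untreated samples and at 7.15, 10.61 and 11.24 after DDC (4.76 ± 0.54, adjusted p = 3.7e-08). Orm3, a neighbouring copy, rose by 1.9 ± 0.46, from 2.72 to 4.03 to between 3.12 and 6.95. The probes of these copies may bind both transcripts.

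Saa4, the constitutive serum amyloid A, moved the other way, from 9.51, 8.57, 11.58, 10.51 and 10.75 to 5.88, 8.64 and 9.72 (-1.85 ± 0.46, adjusted p = 0.0016). Saa4 was not called with the actin 3' excess (-0.37, adjusted p = 0.56) or the macrophage mean (-0.67, adjusted p = 0.082) as a covariate. The inducible Saa1 (7.23 to 12.02 after DDC, 5.61 to 11.43 without) and Saa2 (6.88 to 12.07 and 5.94 to 11.89) spanned more than 4 log2 units in each group and were not called, although Saa1 was called higher without untreated sample 3 (2.16) or DDC sample 2 (1.56) or 5 (1.62). C/EBP factors, which drive acute phase genes in hepatocytes, bind sites of the form TTGCNNAA. The promoters of Orm2, Orm3 and Saa4, not of every called acute phase gene, are given below, and all 3 hold the motif. They are RefSeq sequences of mouse build GRCm38.p6, from 250 bases before the start of the gene to 30 bases from it, 5′ to 3′ on the gene's strand, with matches on either strand in capitals.
Orm2 promoter, chr4:63362199-63362478, plus strand: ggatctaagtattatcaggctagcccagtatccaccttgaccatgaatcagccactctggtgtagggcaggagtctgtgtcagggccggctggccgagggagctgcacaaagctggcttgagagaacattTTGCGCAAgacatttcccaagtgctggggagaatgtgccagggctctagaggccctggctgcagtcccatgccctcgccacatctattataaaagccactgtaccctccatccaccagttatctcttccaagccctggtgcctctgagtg
Orm3 promoter, chr4:63355908-63356187, plus strand: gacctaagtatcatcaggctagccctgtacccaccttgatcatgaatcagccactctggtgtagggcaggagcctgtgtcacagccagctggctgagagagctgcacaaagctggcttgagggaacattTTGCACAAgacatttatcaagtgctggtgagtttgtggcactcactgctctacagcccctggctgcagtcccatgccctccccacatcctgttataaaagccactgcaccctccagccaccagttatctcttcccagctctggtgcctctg
Saa4 promoter, chr7:46732574-46732853, minus strand: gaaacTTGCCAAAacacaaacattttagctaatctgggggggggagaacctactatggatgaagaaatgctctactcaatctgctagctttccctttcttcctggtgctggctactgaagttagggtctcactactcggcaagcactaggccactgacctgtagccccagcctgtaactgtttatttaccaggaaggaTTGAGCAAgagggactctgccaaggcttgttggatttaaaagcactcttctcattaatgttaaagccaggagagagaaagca
Orm2 and Orm3 each held 1 match, within a stretch that is alike in both, and Saa4 held 2. The searched window was 300 bases long, ran to 50 bases from the start and was known for 8848 of the genes tested. In it, 7 of 15 acute phase genes tested (46.7%) had the motif, against 8.43% of genes tested and 10.8% of all 27025 promoters. The share was 8.2% among genes called higher and 13.3% among those called lower. These matches describe the letters in the window only, and the 3 genes shown were called in both directions.

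Complement genes were called in 1 direction only, but unevenly over the samples. Of 16, 0 rose and 6 fell (median -0.96), with 3 lower when untreated sample 3, 4 or 5 or DDC sample 4 or 5 was left out and 9 at most, but 1 in a fit of the 14 samples alone and 1 with the actin 3' excess as a covariate. C8b, a part of the membrane attack complex, fell from 9.78, 8.73, 12.05, 11.03 and 11.04 to 4.79, 8.52 and 9.26 (-2.84 ± 0.53, adjusted p = 6.6e-05). C9 (-1.37 ± 0.42, adjusted p = 0.0087) and the mannose-binding lectin Mbl1 (-1.64 ± 0.46, adjusted p = 0.0048) kept their calls whichever sample was left out. Of 15 coagulation genes, 0 rose and 1 fell (median -0.5), the number lower being 5 without untreated sample 2 and 0 or 2 without any other sample. Of 17 hepatocyte markers none was called in either direction (2 lower without untreated sample 2), with a median of -0.28 (-0.33 under quantile normalization and -0.44 under median centring).

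Metabolic lists had calls lower after DDC for some members each. Of 14 genes of PPAR alpha and fatty acid oxidation, 0 rose and 5 fell (median -0.15; 3 fell without untreated sample 4, and 1 with the actin 3' excess as a covariate). Fabp1, the liver fatty acid binding protein, was at 13.57, 12.77, 12.89, 13.03 and 13.24 without DDC and at 9.49, 11.13 and 11.96 with it (-2.13 ± 0.37, adjusted p = 2.9e-05), with no overlap. Cyp4a10, a fatty acid hydroxylase, fell by 2.5 on the log2 scale (SE 0.64, adjusted p = 0.0021) and the thiolase Acaa1b by 1.45 (SE 0.37, adjusted p = 0.0023). Cpt1a, which admits fatty acids to mitochondria, lay at 9.37 to 10.6 and 8.74 to 10.2 and was not called.

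Of 19 urea cycle and amino acid breakdown genes, 0 rose and 4 fell (median -0.7). This count was 8 without untreated sample 2 and 2 without untreated sample 3, 4 or 5 or DDC sample 1, 2, 4 or 5. With the actin 3' excess as a covariate 4 were called higher and 0 lower, Cps1 among the 4 (1.38). Haao of the tryptophan pathway fell by 2.45 on the log2 scale (SE 0.49, adjusted p = 0.00015), from 9.1 to 11.08 to between 5.39 and 9.5, and the tyrosine dioxygenase Hpd by 1.53 (SE 0.4, adjusted p = 0.0027). Cps1, the first enzyme of the urea cycle, lay at 10.45 to 13.29 after DDC and 11.13 to 12.94 without it. Of 8 genes of glucose output and glucose sensing, 2 fell: G6pc, glucose-6-phosphatase (-2.53 ± 0.65, adjusted p = 0.0022) and Mlxipl, the glucose-sensing factor ChREBP (-2.48 ± 0.56, adjusted p = 0.00063). The number lower was 5 without untreated sample 2, 1 without untreated sample 3, 4 or 5 or DDC sample 1, 2, 4 or 5, and 0 in a fit of the 14 samples alone. With the actin 3' excess as a covariate C8b, C9, Mbl1, Cyp4a10, Acaa1b, Haao, Hpd, G6pc and Mlxipl were not called (differences of -1.24 to -0.1). In a fit of the 14 samples alone the adjusted p was 0.073 for C9, 0.068 for Mbl1, 0.06 for Hpd and 0.055 for G6pc. Fabp1 kept its call in both.

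**Figure D5:**
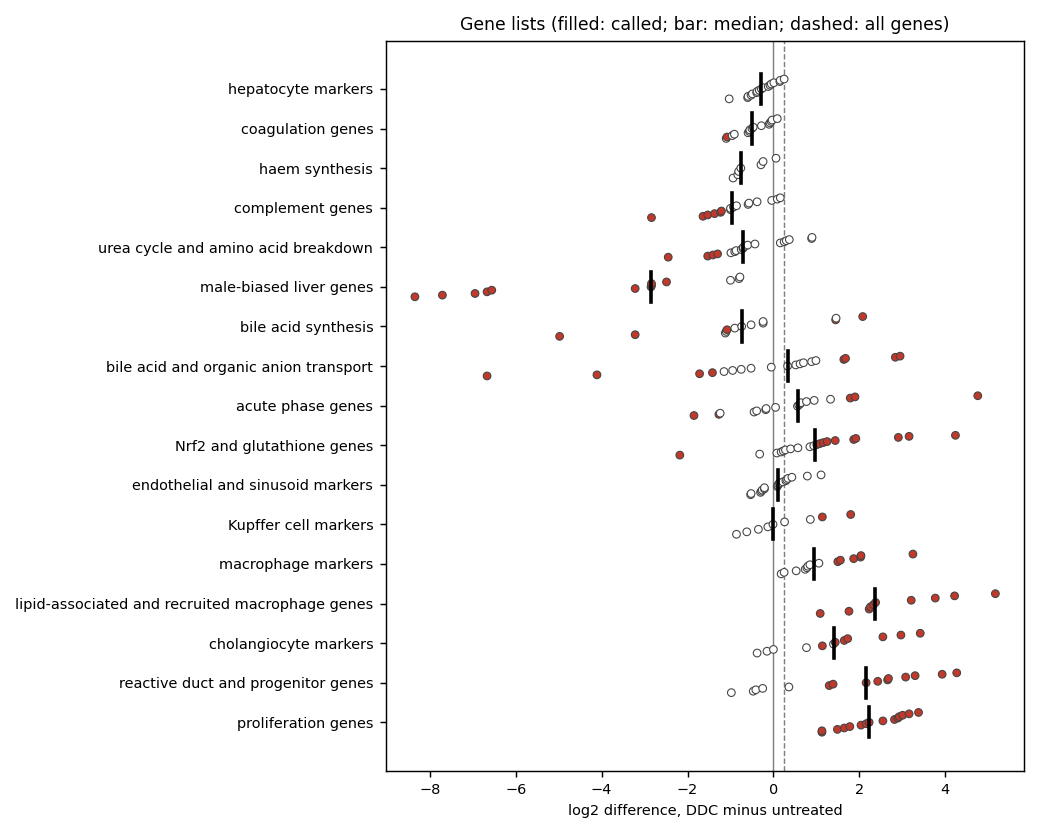
Log2 differences, DDC minus untreated, of the tested members of 17 gene lists. Filled points are called genes, black bars the medians of the lists and the dashed line the median of all genes tested (0.24). All proliferation genes and all lipid-associated and recruited macrophage genes are filled on the right, the male-biased liver genes lie furthest to the left, and no hepatocyte or endothelial marker is filled.

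Duct and progenitor genes rose in most but not all DDC samples. Of 12 cholangiocyte markers tested, 7 rose and 0 fell (median 1.42), with 5 to 8 when single samples were left out, but 2 in a fit of the 14 samples alone. Epcam, an adhesion molecule of duct and progenitor cells, lay at 4.75, 4.51, 3.32, 3.26 and 4.64 in untreated samples and at 3.32, 6.45 and 9.69 after DDC (2.55 ± 0.65, adjusted p = 0.0022). DDC samples 1, 2 and 9 (4.89, 3.32 and 4.39) were at or close to the untreated range and samples 3, 4, 6 and 7 (7.65 to 9.69) far above it.

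In a fit of the 14 samples alone the adjusted p of Epcam was 0.056. The same 4 samples were high for Bicc1, an RNA-binding protein of duct epithelium (7.73 to 8.69), and for Pkhd1, fibrocystin of the primary cilium (6.82 to 7.54). Bicc1 rose by 2.97 ± 0.54 (adjusted p = 5e-05) and Pkhd1 by 1.73 ± 0.53 (adjusted p = 0.009, but 0.093 in a fit of the 14 samples alone). Krt19, the usual duct keratin, reached 8.02 in DDC sample 4 but was not called (1.4 ± 0.6, adjusted p = 0.058), except without untreated sample 2 or DDC sample 2, 8 or 9 (1.6 to 1.72). In neonatal samples Epcam (10.02 to 10.69) and Pkhd1 (9.1 to 9.28) were higher than in any DDC sample.

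Genes of the ductular reaction and of injured epithelium formed a further list. Of 15 tested, 10 rose and 0 fell (median 2.16), with 9 or 10 when single samples were left out. S100a6, a calcium-binding protein of regenerating duct cells, lay at 4.77, 7.57, 3.37, 3.67 and 3.92 without DDC and at 7.51, 8.99 and 9.79 with it (4.27 ± 0.49, adjusted p = 4.1e-08). Sox4, a factor of biliary development, lay at 7.51, 5.63, 3.28, 3.3 and 5.33 and at 7.03, 9.12 and 10.22 (3.93 ± 0.52, adjusted p = 5.4e-07). One untreated sample, 2 for S100a6 and 1 for Sox4, reached the lowest DDC value, and the others were clearly below it.

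Cd24a, a surface protein of progenitor cells, rose by 3.42 ± 0.68 (adjusted p = 0.00016), S100a11 by 3.3 ± 0.37 and the annexin Anxa2 by 2.68 ± 0.39. Anxa2 ran from 10.62 to 11.22 in DDC samples, and from 6.78 to 7.15 in untreated samples 3, 4 and 5 but 9.83 and 10.8 in samples 1 and 2. Tff3, a mucosal trefoil peptide, rose by 3.08 ± 0.47, from 3.97 to 4.44 to between 4.41 and 8.7. Lgr5, a stem cell receptor of the Wnt pathway reported in injured liver, lay at 3.14 to 5.57 after DDC and 3.7 to 5.24 without and was not called (-0.25 ± 0.49, adjusted p = 0.7).

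Signalling lists were called in part. Of 17 YAP target genes, 5 rose and 0 fell (median 0.87), with 8 higher without untreated sample 2 and 3 without untreated sample 3. Ccn2, a matricellular protein, lay at 5.91, 6.9, 4.32, 4.01 and 4.73 in untreated samples and at 6.89, 8.72 and 10.14 after DDC (3.32 ± 0.49, adjusted p = 2.8e-06), and Ajuba, an adaptor of the pathway, rose by 2.6 ± 0.41 with no overlap. Ccn1, another standard YAP target, lay at 6.35 to 10.52 and 6.79 to 10.66 and was not called (0.18 ± 0.57, adjusted p = 0.82), except with the actin 3' excess (2.02) or the macrophage mean (1.55) as a covariate. Of 8 Wnt feedback targets, 2 rose and 1 fell (median -0.25): the receptor-removing ligase Znrf3 rose by 1.7 ± 0.45 (adjusted p = 0.0027; 0.73 over the mean of its probe sets), and Axin2 was not called (-0.31 ± 0.3, adjusted p = 0.43).

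Of 6 fetal liver genes tested, 3 rose and 1 fell (median 1.15). Afp, alpha-fetoprotein, rose from 3.72, 4.97, 4.23, 3.77 and 3.2 to 3.86, 6.04 and 6.91 (1.72 ± 0.37, adjusted p = 0.00044), far below its neonatal level of 13.34 to 13.39. Bex1 rose by 2.65 ± 0.6 (adjusted p = 0.00069) through DDC samples 3 to 7 (7.11 to 8.12), whereas samples 1, 2, 8 and 9 (3.46 to 4.04) were near the untreated values of 2.6 to 3.68. The imprinted gene Peg3 fell, from 6.73, 5.32, 9.17, 9.63 and 7.16 to 3.69, 4.81 and 5.74 (-2.81 ± 0.45, adjusted p = 8.2e-06).

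All 10 tested genes of lipid-associated and recruited macrophages were called higher by the probe sets used (median 2.36), with 9 or 10 when single samples were left out. Trem2, given no direction below, is among the 10. The count was 9 without probe sets named for cross-hybridisation, 5 in a fit of the 14 samples with the actin 3' excess as a covariate and 7 with the macrophage marker mean as a covariate. Gpnmb, a lysosomal glycoprotein of lipid-laden macrophages, lay at 5.48, 7.93, 5.39, 4.4 and 4.48 in untreated samples and at 8.61, 9.45 and 11.5 after DDC (4.22 ± 0.52, adjusted p = 1.6e-07). Mmp12, macrophage elastase, lay at 4.88, 6.32, 4.68, 5.45 and 3.83 and at 8.76, 10.24 and 12.02 (5.17 ± 0.52, adjusted p = 4.4e-09). Every DDC sample was above every untreated sample for both, including samples 3, 6 and 7, in which general macrophage markers (means of 7.88 to 8.0) were within the untreated range.

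Lgals3, galectin-3, rose by 3.21 ± 0.43 (adjusted p = 6e-07), from 7.08 to 10.72 to between 10.47 and 12.8. Chil3, a chitinase-like protein of recruited monocytes, was at 3.0 to 3.18 in all untreated samples and at 4.6 to 9.74 after DDC (3.77 ± 0.58, adjusted p = 6e-06). Ccr2, the receptor that recruits monocytes, named after its values were seen, rose by 2.33 ± 0.53, with its highest values in DDC samples 1, 2 and 5. It was not called over the mean of its probe sets (0.91) or with the actin 3' excess as a covariate (0.57, adjusted p = 0.27). Cd9, a tetraspanin, was narrow within the DDC group (10.53 to 11.16) and rose by 2.38 ± 0.23. Trem2, a lipid receptor of these cells that was also chosen after its values were seen, was called higher by the probe set used (2.26 ± 0.6, adjusted p = 0.0029). When probe sets named for cross-hybridisation were left out its difference was -0.63 (adjusted p = 0.0042), too small for a call. No direction is given for Trem2.

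General macrophage markers were called in 6 of 14 (median 0.96; 4 to 7 when single samples were left out), and in 1 with the actin covariate. Cd14, the endotoxin co-receptor, rose by 3.25 ± 0.57 (adjusted p = 3.1e-05), and Csf1r, the growth factor receptor of macrophages, was not called (0.18 ± 0.5, adjusted p = 0.8) and was called lower with the actin covariate (-1.4) or the macrophage mean as a covariate (-1.02). Of 9 resident Kupffer cell markers 2 were called higher (median -0.01), and 0 without untreated sample 3 or 5 or DDC sample 1, 2 or 5 or after quantile normalization. With the actin 3' excess as a covariate 5 were called lower. Clec4f (6.1 to 10.92 after DDC, 8.3 to 10.87 without) and Timd4 (3.13 to 9.37 and 3.63 to 8.36), both specific to Kupffer cells, were not called, and Timd4 was among the 10 genes with the largest spread over the DDC samples. Both were called lower with the actin 3' excess (-2.53 and -2.98) or the macrophage mean (-2.15 and -2.44) as a covariate. None of 18 endothelial and sinusoid markers was called (median 0.11, -0.16 under quantile normalization). With the actin 3' excess as a covariate, in a fit of the 14 samples, 16 of them were called lower (median -2.06).

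Of 15 chemokine ligands, 5 rose and 1 fell (median 1.25). Ccl2, the monocyte attractant, lay at 4.66, 7.64, 3.83, 4.87 and 3.6 without DDC and at 5.79, 7.55 and 8.42 with it (2.54 ± 0.49, adjusted p = 0.0001), and Ccl9 rose by 1.54 ± 0.34. Cxcl5, a neutrophil attractant of epithelia, rose by 2.5 ± 0.7 (adjusted p = 0.0047), with 6.82 to 8.93 in DDC samples 3, 4, 6 and 7, the samples with high duct markers, and 3.54 to 5.15 in the other 5. The neutrophil attractants Cxcl1 (0.12 ± 0.49) and Cxcl2 (1.25 ± 0.87) were not called, and DDC sample 5 stood apart for Cxcl2 at 12.39, with the other 8 between 3.76 and 8.24. Without untreated sample 2, at 9.95, Cxcl2 was called higher (2.35, adjusted p = 0.017).

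Of 13 genes of the TNF and NF-kB response, 3 rose and 0 fell (median 0.43), against 16.0% and 5.52% of all genes tested. Vcam1, an adhesion molecule for leukocytes, lay at 5.22, 6.37, 5.13, 4.77 and 5.57 in untreated samples and at 7.92, 8.52 and 9.34 after DDC (3.08 ± 0.29, adjusted p = 7.8e-10), and every DDC sample was above every untreated one. Il1b lay at 12.55 in DDC sample 5 and at 4.88 to 7.83 in the other 8, against 5.91 to 9.48 without DDC, and was not called, except lower with the macrophage mean as a covariate (-2.0) and with only the DDC samples of higher title numbers kept (-1.67).

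Of 11 matrix remodelling genes, 5 rose and 0 fell (median 0.77). Timp1, the inhibitor of matrix proteases, lay at 4.47, 4.03, 3.29, 4.27 and 3.89 without DDC and at 5.71, 6.52 and 7.04 with it (2.4 ± 0.31, adjusted p = 2.9e-07). The collagenase Mmp13 rose by 3.18 ± 0.59 and the membrane-bound protease Mmp14 by 1.83 ± 0.36, both without overlap. The fibrillar collagen gene Col3a1 was not called (1.23 ± 0.57, adjusted p = 0.082), except without untreated sample 1 or DDC sample 3, 5, 6 or 7 (1.4 to 1.47), and 1 of 10 stellate cell and fibroblast markers was (median -0.05; 3 without untreated sample 1 or DDC sample 3). MHC class II genes, of antigen-presenting cells, had 0 of 6 called (5 lower with the actin 3' excess as a covariate). T and NK cell markers had 0 of 3 tested called, of 12 measured. Of 6 B and plasma cell markers measured, 3 were tested and called lower, among them Jchain of secreted antibodies (-2.25 ± 0.58, adjusted p = 0.0022). The B and plasma cell list averaged 3.4 to 4.41 after DDC and 4.12 to 5.15 without it, around the 4.06 needed for testing. Members low after DDC were tested only through the untreated samples, so this count leans towards calls. Of 3 erythroid markers tested, of 6 measured, 2 fell. They were the erythroid haem enzyme Alas2, from 6.31, 5.27, 5.86, 6.28 and 8.99 to 3.49, 4.29 and 5.2 (-2.22 ± 0.45, adjusted p = 0.00022), and the factor Klf1 (-1.62 ± 0.26).

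All 15 proliferation genes tested, of 16 measured, rose (median 2.23). The count was 13 to 15 when single samples were left out and 11 in a fit of the 14 samples with the Y-linked level as a covariate. The list averaged 3.38 to 4.54 in untreated samples, around the 4.06 that the mean of 1 group had to pass. Members low there were tested only through the DDC samples, so the count of 15 leans towards calls. Ccnb2, cyclin B2 of mitotic entry, lay at 4.12, 3.8, 3.81, 3.62 and 3.58 in untreated samples and at 4.86, 7.04 and 9.17 after DDC (3.38 ± 0.51, adjusted p = 4.4e-06). All 9 DDC samples were above all untreated ones, samples 3, 6 and 7 most (8.94 to 9.17) and samples 1 and 2 least (4.86 and 4.99). Ube2c, the ubiquitin-conjugating enzyme of the anaphase-promoting complex, lay at 5.85, 3.6, 3.57, 3.31 and 3.05 and at 4.83, 6.96 and 8.67 (3.16 ± 0.52, adjusted p = 1.3e-05).

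The division marker Mki67 rose by 2.93 ± 0.51, the chromosomal passenger Birc5 by 3.01 ± 0.52 and cyclin A2 (Ccna2) by 2.9 ± 0.45. For Mki67, untreated sample 1 (5.95) lay above DDC sample 1 (5.54) and sample 8 (5.78) and level with sample 9 (5.95), and the other 4 untreated samples (3.34 to 4.27) below all DDC samples. Without DDC samples 1 and 2, 15 proliferation genes were called again. The mean of the list was 4.64 to 7.54 after DDC, 3.38 to 4.54 without it and 8.1 to 8.17 in neonatal liver. Of 12 p53 and senescence genes, 3 rose and 0 fell (median 0.41), against 16.0% and 5.52% of all genes tested. Among the 3 was Trp53inp1 (1.39 ± 0.22, adjusted p = 1e-05), at 0.86 over the mean of its probe sets. The p53 regulator Mdm2 was not called (0.34 ± 0.21).

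Promoters of 3 proliferation genes are given because late cell cycle promoters often combine CCAAT boxes, bound by NF-Y, with a cell cycle homology region, whose core TTTGAA is bound by the DREAM complex. They are cut and written as above, with CCAAT and TTTGAA on either strand in capitals, and the 2 motifs share no base.
Ccnb2 promoter, chr9:70421525-70421804, minus strand: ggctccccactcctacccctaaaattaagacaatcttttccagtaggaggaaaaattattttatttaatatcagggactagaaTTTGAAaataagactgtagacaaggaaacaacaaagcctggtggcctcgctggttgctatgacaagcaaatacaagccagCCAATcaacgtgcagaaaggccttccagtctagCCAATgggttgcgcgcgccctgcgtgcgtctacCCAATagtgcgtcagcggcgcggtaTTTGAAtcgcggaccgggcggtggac
Ube2c promoter, chr2:164769679-164769958, plus strand: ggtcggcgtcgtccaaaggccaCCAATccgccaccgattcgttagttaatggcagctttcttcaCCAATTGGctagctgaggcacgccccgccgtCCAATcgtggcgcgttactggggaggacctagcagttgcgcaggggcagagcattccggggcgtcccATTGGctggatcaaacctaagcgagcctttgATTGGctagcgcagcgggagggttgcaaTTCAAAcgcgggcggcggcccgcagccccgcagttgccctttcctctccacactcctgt
Mki67 promoter, chr7:135716350-135716629, minus strand: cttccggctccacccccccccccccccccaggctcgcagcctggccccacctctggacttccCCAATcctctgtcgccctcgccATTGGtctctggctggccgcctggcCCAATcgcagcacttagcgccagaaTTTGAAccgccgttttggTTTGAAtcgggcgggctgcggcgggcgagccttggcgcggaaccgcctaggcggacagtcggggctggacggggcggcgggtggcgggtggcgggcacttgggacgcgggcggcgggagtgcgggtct
Ccnb2 held 3 CCAAT and 2 TTTGAA matches, Ube2c held 6 and 1, and Mki67 3 and 2. In the full 300 bases, CCAAT was found in 10 of 12 proliferation genes tested (83.3%), 38.3% of genes tested and 37.9% of all promoters. TTTGAA was found in 8 of the 12 (66.7%), 11.9% of genes tested and 18.1% of all promoters. Among all genes called higher the shares were 40.1% and 14.8%, close to those of genes tested.

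Genes of protein folding stress were called in both directions. Of 16 genes of the unfolded protein and integrated stress response, 1 rose and 4 fell (median -0.33). Ddit3 (CHOP), the factor of stress-induced cell death, fell from 7.6, 8.36, 8.09, 8.19 and 7.89 to 5.78, 6.32 and 7.16 (-1.56 ± 0.23, adjusted p = 2.7e-06). The glutathione-degrading Chac1 (-1.39 ± 0.24; -0.93 with the actin 3' excess as a covariate) and the chaperone Creld2 (-1.73 ± 0.28) fell without overlap too, and the main chaperone of the endoplasmic reticulum, Hspa5, was not called (-0.19 ± 0.16).

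Of 15 immediate early genes, which tissue handling also induces, 3 rose and 4 fell (median -0.73). The count lower was 1 without untreated sample 5 and 2 without untreated sample 4 or DDC sample 2 or 9, and the count higher was 5 without untreated sample 2 or DDC sample 8. Jun fell by 1.25 on the log2 scale (SE 0.3, adjusted p = 0.0013; 0.065 with the actin 3' excess as a covariate), and Egr2 and Myc rose by 2.52 ± 0.41 and 1.45 ± 0.26. Fos, at 8.64 to 11.65 after DDC and 10.87 to 11.32 without, was not called (-0.89 ± 0.29), except without DDC sample 5 (-1.07) and under median centring (-1.05).

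The DDC samples differed most among themselves in Sult1e1, the estrogen sulfotransferase. It lay at 2.99, 2.73, 10.59, 9.29, 8.08, 10.4, 10.47, 7.78 and 6.17 in DDC samples 1 to 9 and at 2.59 to 3.37 without DDC (4.59 ± 0.85, adjusted p = 7.1e-05), so DDC samples 1 and 2 were at the untreated level and the other 7 well above it. Over the 9 DDC samples its pattern was close to that of Prom1 (Pearson r = 0.993), as was that of the basement membrane collagen Col4a5 (r = 0.996), the membrane linker Rdx and Fam25c (r = 0.989 each) and the cell cycle gene Cdca3 (r = 0.987). These r are descriptions over 9 samples that share the low values of samples 1 and 2. Cyp2c37 (3.05 to 10.58), also among the 10 most variable genes, was again near 3 in samples 1 and 2 and at 7.79 or above in the other 7, and it was at 10.03 in untreated sample 5 and 3.15 to 4.36 in the other 4.

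Leaving out DDC samples 1 and 2 gave 2286 called genes, against 2347. The counts then were 8 cholangiocyte markers, 9 reactive duct and progenitor genes, 9 lipid-associated and recruited macrophage genes and 15 proliferation genes higher, 10 male-biased genes lower and no hepatocyte marker in either direction. Other genes of large spread were Dmbt1, a mucosal scavenger protein (2.75 to 9.86), Gdpd3 (4.2 to 10.19) and Xist. Gdpd3 was at 10.19, 9.82 and 8.46 in DDC samples 2, 5 and 8 and at 5.73 or below in the other 6.

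Against the 3 neonatal liver samples, 1365 of 10886 genes (12.5%) were called, 4.4% higher and 8.14% lower in DDC cells. This comparison shares the 9 DDC samples with the one above, so their values are given side by side and no agreement is read from them. Unlike the untreated samples, the DDC and neonatal samples both carry high title numbers and a low Gapdh 3' excess. Orm2 (3.02 ± 0.19 in neonatal cells, SD, n = 3), Mmp12 (3.35 ± 0.17) and Gsta2 (4.97 ± 0.37) were higher in DDC cells than in neonatal cells by 6.99 ± 0.65, 6.84 ± 0.63 and 6.66 ± 0.54, as they were against untreated cells. Cyp2b10, by 6.4 ± 0.82, was too.

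Lower in DDC cells than in neonatal ones were the platelet chemokine Ppbp (-8.18 ± 0.74), Afp (-7.67 ± 0.45), Peg3 (-6.75 ± 0.53), Bex1 (-6.43 ± 0.72) and Sult2a2 (-6.36 ± 0.48). Prom1 was lower than in neonatal cells (-3.25 ± 0.8, adjusted p = 0.0037), although it was higher than in untreated ones. All 16 proliferation genes tested in this comparison were called lower than in neonatal cells (median -2.1, against -0.06 over all genes tested), Ube2c by -2.6 ± 0.62 and Mki67 by -2.32 ± 0.61. Male-biased genes were low in both, Hsd3b5 at 2.78 to 3.34 in neonatal cells and 2.37 to 3.17 in DDC cells. Cyp8b1 was not: it was at 8.11 to 8.27 in neonatal cells, near the untreated level, and lower in DDC cells (-4.59 ± 0.39, adjusted p = 4.4e-11).

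Digestive enzymes of the pancreas were present in part of the untreated samples. Of 13 pancreatic acinar genes, a list added after the values were seen, 13 were called lower after DDC, but 3 when untreated sample 1 was left out. The list averaged 10.48 in untreated sample 1 and 4.18 to 5.26 in the other 4, 3.44 to 3.65 in the DDC samples and 8.44 in neonatal sample 2. Amy2a5, pancreatic amylase, chosen after its values were seen, lay at 12.18, 7.19, 2.88, 3.39 and 3.42 in the untreated samples and at 2.41 to 2.9 after DDC. Without untreated sample 1, 2932 genes were called.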

How the data were processed

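The deposited values were log2 levels per probe set of a 1-colour Affymetrix mouse array (HT MG-430 PM), made by the authors with Partek 6.6, per the submitters' processing notes. How background was corrected and arrays were normalized and summarized is not given in the sources used here, and scaling by the authors could move all differences. Of 45141 probe sets, 28898 had 1 gene in the platform annotation, giving 17097 genes, each read by its probe set with the highest mean. A limma model (version 3.58.1, R 4.3.3) was fitted to all 40 sorted samples, which share 1 estimate of the spread, and p-values were adjusted over all genes tested (Benjamini-Hochberg). Genes were tested where the mean of 1 group passed the 40th percentile (4.06). A gene low in 1 group was thus tested only through the other. Counts over lists with many low genes, such as the proliferation, female-biased, B and plasma cell and pancreatic acinar lists, therefore lean towards calls. The fit was tested on simulated data with independent noise and the same SD of a gene in all groups. Of genes of middle level changed by 1.5 log2 units 75.8% were called, 94% at 2 and 100% at 3. There were 9 false calls with 10434 genes tested. The simulation has no mix of cells that varies between samples, so these rates need not hold for the liver samples. Actb and Gapdh control probe sets were compared by an exact permutation test. Figures were drawn with matplotlib 3.10.9.

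Samples were grouped by their description and source labels. The comparison, the 50 gene lists and the alternatives were chosen with earlier results of these data known. Genes named are Prom1; the 15 largest increases and 15 largest decreases without overlap; per list up to 5 called members each way and up to 3 others; the 10 most variable and 5 most Prom1-like genes over the DDC samples; and 5 each way against neonatal cells, with exceptions marked in the text. Scara3, Ifi202b and Cd207, among the most variable genes, and Thrsp, among those higher than in neonatal cells, met these rules but are not described. Of the 709 genes in the lists, 627 were measured and 558 tested. Lists are described by counts and medians, with no test of their own. Alternatives were other scalings, filters, probe set choices, fits and covariates, and leaving out each sample. For neutrophil markers 1 of 5 genes tested was called higher, for platelet markers 1 higher and 1 lower of 5, for mesothelial markers 0 of 1, for periportal genes 1 higher and 2 lower of 9, for pericentral genes 2 lower of 11, for lipogenic genes 2 lower of 12, for cholesterol synthesis 1 higher and 1 lower of 14, for glycolysis 1 higher of 10, for hepatocyte transcription factors 1 each way of 16, for the Notch pathway 1 higher of 12 and for the interferon response 2 higher and 1 lower of 15. With the actin 3' excess as a covariate 10 cholesterol synthesis genes and 4 pericentral genes were called higher and 4 interferon response genes lower; leaving out single samples gave up to 4 glycolysis, 4 Notch pathway and 4 interferon genes higher and up to 5 lipogenic and 4 pericentral genes lower.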

Additional observations from a re-analysis of the deposited data

Results flagged for a closer look

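Over the genes named, 312 sets of 5 or 9 samples were checked for a single sample far from the others of its group, and 21 were found, where chance alone marks about 1 in 20. DDC sample 5 accounts for 7. It had Xist at 11.27 (next highest 5.11), Eif2s3y at 2.88, Kdm5d at 2.9 and Uty at 2.72 (next lowest 9.0, 6.52 and 5.82), and was highest for Il1b at 12.55, Cd14 at 11.69 and Mmp13 at 8.87. DDC sample 2 accounts for 6, as the lowest of its group for Gsta2 (8.75), Gstm3 (10.67), Krt8 (10.19), Krt18 (9.6), Lcn2 (9.76) and Sprr1a (5.57).

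Untreated sample 2 was lowest for Alb (13.48), Cpt1a (8.74) and Keg1 (7.82) and highest for Trem2 (6.85). Untreated sample 5 was highest for Alas2 (8.99) and Cyp2c37 (10.03) and lowest for Uxs1 (5.1). Untreated sample 1 was highest for Ube2c, at 5.85 against 3.6 for the next.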

How the results depend on the processing

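Leaving out each sample in turn gave 1879 to 2932 called genes, and leaving out untreated samples 1 and 2 together, a setting chosen after seeing the data, gave 4069; every other setting stayed within 1.5 times of 2347. Of the 119 named genes that were called, 86 kept their call and direction in every setting and 2 reversed. Trem2 was -0.63 and Fech, not called otherwise, 1.11 without probe sets named for cross-hybridisation. Slc10a1 was 0.39 with the actin 3' excess as a covariate, and Csf1r, not called otherwise, was -1.4 with it and -1.02 with the macrophage mean as a covariate. That actin covariate ended 21 of the 119 calls, the macrophage mean 15, the fit of the 14 samples alone 13 and the Y-linked level as a covariate 11, among them Cxcl5. The part of RNA quality and of the mix of cells in those calls was not tested further, and the actin covariate does not separate them. The difference in the actin excess itself, DDC minus untreated, was -0.55 to -0.38 when single samples were left out, and lost its exact permutation call without untreated sample 3, 4 or 5 (p = 0.053, 0.074 and 0.057); that in the Gapdh excess was -0.74 to -0.66. No paired analysis was possible because the labels give the groups no shared replicate numbers. Probe sets near the bottom of the range, such as those of Prom1 in untreated samples, limit how large a fold can be read.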
